A study of Homo sapiens with 16 samples.

Results

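These results describe 9 human genes in U2OS cells whose average transcript length differed after ultraviolet light in control cells: COG3, SSH2, FBXW7, PPP1R10, TIGD6, CPT1B, NPIPB5, MARF1 and SEC23A. They are 9 of the 60666 genes in the deposited tables. The genes were chosen by name, with the deposited length values of empty-vector cells in view, and no numeric limit was given for the choice. Their shift in empty-vector cells is therefore given as a description without a test. The tests are of shifts in the 3 knockdown lines, whose values did not take part in the choice. The spread in these tests is estimated over all groups, so it draws in part on the empty-vector UV libraries that were in view. U2OS is a human cell line grown from a bone sarcoma. All cells were stable lines kept under puromycin: they carried the empty plko.puro vector or short hairpins that target PIP4K2A (shPIP4K2A), PIP4K2B (shPIP4K2B) or both (shPIP4K2A/2B, the double knockdown). PIP4K2A and PIP4K2B are kinases that phosphorylate the signalling lipid phosphatidylinositol 5-phosphate. Each of these 4 genotypes was either left untreated or exposed to UV-C at 30 J/m2 and harvested 6 h later, with 2 libraries of rRNA-depleted RNA in each of the 8 groups. One label field describes every library as wild type, so the genotypes here follow the titles and the genotype field. No group with a hairpin that lacks a target is among the samples. The labels do not state whether 2 libraries of a group are separate cultures. The p-values cover only the spread among these libraries, which may be technical. In such bulk RNA, fewer cells and less RNA per cell cannot be told apart.

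The quantity followed here is the isoform-weighted length of a gene: the mean length of its annotated transcripts, each weighted by its estimated share in that library. It moves when the estimated proportions of a gene's long and short transcripts change, and it is not scaled by how much of the gene is expressed. Whether these estimates follow the true proportions of the transcripts was not tested. UV light makes bulky lesions in DNA that stall RNA polymerase II on transcribed strands. As general background, UV is known to slow elongation, to change splicing and the use of internal polyadenylation sites, and to favour short transcripts that end early in some genes, of which ASCC3 is the best known. A polyadenylation signal, most often AATAAA or ATTAAA, lies a short way upstream of the place where a transcript is cut and given its poly(A) tail.

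The 9 genes had 116 annotated transcripts in GENCODE release 29 (GRCh38), and 73 of these were under 1000 bases long. A gene of this group had a median of 13 transcripts and a median span of 57.4 kb, against 8 transcripts and 33.2 kb over 12606 genes tested that had coordinates. COG3 (chr13:45464898-45536630, plus strand) had 7 transcripts of 255 to 4498 bases. SSH2 (chr17:29625938-29930276, minus strand) had 13 transcripts of 428 to 9327 bases, and FBXW7 (chr4:152320544-152536063, minus strand) had 16 of 395 to 5653 bases. SSH2 and FBXW7 span the most DNA of the 9 genes. PPP1R10 (chr6:30600400-30618612, minus strand) had 7 transcripts of 333 to 4525 bases, of which 6 were under 1000 bases. TIGD6 (chr5:149993118-150001167, minus strand) had 3 transcripts of 657 to 4006 bases. Both span less than the median gene tested.

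Among the genes whose average length was higher after UV in empty-vector cells, CPT1B (chr22:50568861-50578465, minus strand) had 13 transcripts of 545 to 2662 bases, and 6 of them were annotated as retaining an intron. NPIPB5 (chr16:22479121-22536521, plus strand) had 27 transcripts of 483 to 5708 bases. It belongs to a family of nearly identical copies, so the assignment of its reads is uncertain. MARF1 (chr16:15594386-15643166, minus strand) had 15 transcripts of 489 to 7743 bases, and SEC23A (chr14:39031919-39109646, minus strand) had 15 of 261 to 4215 bases. CPT1B overlaps the read-through gene CHKB-CPT1B on the same strand and NPIPB5 overlaps SMG1P1, and the strand setting of the counting is not given in the sources used here, so reads shared with neighbours cannot be separated. Antisense or opposite-strand genes also overlap the other 7 genes. On the same strand, SSH2 overlaps 4 genes, among them RNU6-920P and RPL21P123, FBXW7 overlaps MIR3140 and MARF1 overlaps MIR6506.

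The following transcript ends show where forms of a gene stop: long forms of COG3 and TIGD6 with some of their shorter forms that carry a signal, and the full-length forms of SSH2 and MARF1, 1 from each direction of change. Each line is the last 30 bases of a GENCODE 29 transcript, 5′ to 3′ on the transcript's strand, with AATAAA or ATTAAA in capitals. The short forms COG3-202, COG3-205 and TIGD6-203 hold neither signal in that window and are not shown.
COG3-201: taaaAATAAAgatttttgcttcctaccttg
COG3-206: ttacaAATAAAgaaaagcggttctctggaa
COG3-207: caaagcAATAAAaatgaattttatttgaaa
COG3-203: ataccctggatAATAAAagttgtttgctct
TIGD6-201: AATAAActaatatgatcatttgaATTAAAa
TIGD6-202: agtttacaagAATAAAgatttctttagata
SSH2-201: attgAATAAAtttttattttgaagatgaaa
MARF1-201: tgtcAATAAActttacaagcgagcatctat
The full-length COG3-201 is 4498 bases long and its end shown lies at chr13:45536601-45536630. COG3-206 is 1809 bases long and stops at chr13:45493907-45493936, after 40.5% of the gene. COG3-207 (530 bases) and COG3-203 (255 bases) stop after 1.3% and 2.4% of the gene. So 3 of the 4 COG3 ends shown, which were picked for their signal, lie in its upstream part. COG3-204 (679 bases) also holds a signal, ATTAAA, but is not shown, and it stops far downstream, after 93.7% of the gene. TIGD6-201 (4006 bases) ends at chr5:149993118-149993147, and TIGD6-202 (2429 bases) ends upstream of it at chr5:149994728-149994757. SSH2-201 (9327 bases) ends at chr17:29625938-29625967 and MARF1-201 (7743 bases) at chr16:15594386-15594415. Of the 73 member transcripts under 1000 bases, 9 held either signal in their last 30 bases. That is a smaller share than the 27.1% over 206659 annotated transcripts (21.3% AATAAA, 6.6% ATTAAA, on the transcript strand only). The latter are of any length, so the sets are unlike. Many annotated short transcripts are fragments with an end that was not mapped, so a missing signal says only that these letters are not in that window.

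**Figure D1:**
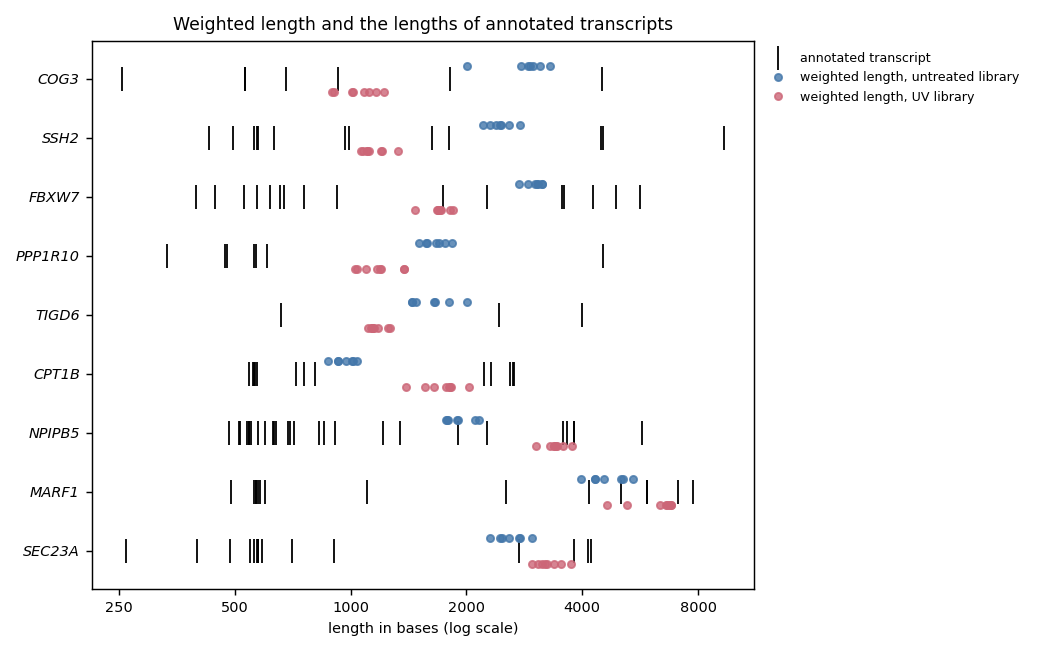
Lengths in bases, on a log scale, of the annotated transcripts of each gene (black ticks) and of the isoform-weighted length in 7 untreated (blue) and 8 UV (red) libraries. In COG3 the UV points (892 to 1222 bases) lie under the 1809-base form, and in CPT1B the UV points (1390 to 2026 bases) move towards the coding transcripts of 2217 bases and more.

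The 15 libraries used held 28 to 39.9 M expected counts. The first empty-vector untreated library was set aside, as the choice of genes asked: it held 1.28 M counts, 14.6% of them mitochondrial against 2.2% to 3.43% elsewhere. The empty-vector untreated group is thus 1 library. The first UV library of the PIP4K2A knockdown also stood apart. Its length minus effective length, a term for fragment size, was 253.3 bases against 199.6 to 248.9 in the other 14 libraries, and the small RNA RN7SK took 32.7% of its TPM, a level per length and depth, against 16.3% to 25.4%. The UV shifts of the 9 genes in the PIP4K2A knockdown are therefore also given without it. The osteosarcoma markers VIM (1910 to 3630 CPM, counts scaled to the library total), COL1A1 (1350 to 3270) and SPARC (656 to 1530) were high in all 15 libraries, while COL1A2 was at 0 to 0.627. The blood genes CD3E and HBB were at or near 0.

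The UV length shift of 5 of the 9 genes recurred in all 3 knockdown lines. COG3, SSH2 and FBXW7 became shorter and CPT1B and NPIPB5 became longer (limma with Benjamini-Hochberg adjustment over all genes tested, adjusted p under 0.05). By line, 7 of 9 passed with PIP4K2A knocked down, 5 of 9 with PIP4K2B and 8 of 9 with both, each in its empty-vector direction. Without the first PIP4K2A UV library, 4 of 9 passed in that line, 5 and 7 in the others, and 3 of 9, SSH2, FBXW7 and CPT1B, in all 3 knockdowns. Over all genes tested, 2.51%, 1.75% and 2.66% passed in these lines, and 1.01% in empty vector. Passing in all 3 knockdowns was seen in 39 of 12650 genes that became longer (0.308%) and 75 that became shorter (0.593%). The median shift over all genes was 0 on the log2 scale in each line. The untreated and UV ranges of 7 of the 9 genes did not overlap over the 12 knockdown libraries, and those of MARF1 and SEC23A did. The share of all genes without such overlap was not computed, so this count is a description only. The ranges given per gene below are descriptions too, and they include the empty-vector libraries with which the genes were chosen.

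The first role group is membrane traffic. COG3 is a subunit of the conserved oligomeric Golgi complex, which tethers vesicles that return enzymes between Golgi cisternae. Its weighted length was 2984 bases in the empty-vector untreated library, 2010 and 2894 with PIP4K2A knocked down, 2780 and 3290 with PIP4K2B and 2923 and 3098 with both. After UV it was 904 and 1014 bases in empty vector, 1222 and 1113 with PIP4K2A knocked down, 892 and 1166 with PIP4K2B, and 1005 and 1082 with both. Every UV library was thus under every untreated one, and the untreated library at 2010 bases was the low one. The log2 shift was -1.64 in empty vector. COG3 fell by 1.05 (SE 0.191, adjusted p = 0.0376), 1.57 (0.0118) and 1.53 (0.0109) on the log2 scale in the PIP4K2A, PIP4K2B and double knockdowns by limma. Without the first PIP4K2A UV library the shift in that line was -1.12 (adjusted p = 0.107), and over 25 other settings its adjusted p ran from 0.0277 to 0.423, under 0.05 in 12.

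If only the 4498-base COG3 transcript counts as long, the weighted length sets limits on its estimated share of the gene's molecules. That share was at most 15% to 22.8% in the 8 UV libraries, while in the 7 untreated libraries it was at least 7.5% to 55.1% and at most 41.4% to 71.5%. These limits assume the GENCODE 29 transcripts. The release used by the authors is not given in the sources used here, and 94.9% of 34869 genes with 1 transcript had the same length in both, within 0.5 bases. Of the 8 subunits of the Golgi complex, COG3 was the single one past the length test in each knockdown, and the list's median shift lay between 0 and 0.02.

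SEC23A is part of the inner COPII coat, which buds vesicles from the endoplasmic reticulum. Untreated, SEC23A had a weighted length of 2304 bases in empty vector, and 2961 and 2576, 2751 and 2732, and 2480 and 2442 in the PIP4K2A, PIP4K2B and double knockdowns. After UV the values were 3733 and 3373, 3206 and 3529, 3143 and 2961, and 3245 and 3078 bases in the same order of genotypes. Within each genotype both UV libraries were above the untreated ones, but the first untreated PIP4K2A library equalled the lowest UV library to the base shown. The log2 shift was 0.62 in empty vector, and 0.28 (adjusted p = 0.123), 0.15 (0.491) and 0.36 (0.0656) in the knockdowns by limma, none past the test. In the double knockdown SEC23A passed in 2 of 25 other settings, those without an untreated PIP4K2A library, and the adjusted p ran from 0.0465 to 0.805. Leaving out the first PIP4K2A UV library gave 0.35 in that line (adjusted p = 0.156), and it ran from 0.0948 to 0.842 over 25 other settings. None of the 11 COPII genes passed in any knockdown.

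The second group acts on phosphate groups and protein turnover. SSH2, slingshot protein phosphatase 2, removes the inhibitory phosphate from cofilin and so promotes actin filament turnover. SSH2 transcripts averaged 2586 bases in empty vector untreated and 2206 to 2748 in the 6 untreated knockdown libraries. After UV they averaged 1331 and 1197 in empty vector, 1118 and 1208 in the PIP4K2A, 1075 and 1066 in the PIP4K2B and 1102 and 1100 in the double knockdown. The groups were far apart in every line. SSH2 shifted by -1.03 in empty vector and fell by 1.08 (adjusted p = 0.00225), 1.23 (0.00114) and 1.06 (0.00257) on the log2 scale (SE 0.0866, limma). Without the first PIP4K2A UV library the call held (-1.02, adjusted p = 0.0154), and over 25 other settings that adjusted p ran from 0.00139 to 0.208. Of 11 slingshot, LIM kinase and cofilin genes, no other passed the length test in any knockdown.

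FBXW7 is the substrate-binding subunit of an SCF ubiquitin ligase that marks cyclin E, MYC and Notch for degradation. The untreated FBXW7 values were 3061 bases in empty vector, 2745 and 2885 in the PIP4K2A, 3137 and 3139 in the PIP4K2B and 3022 and 3051 in the double knockdown. The UV values were 1684 and 1673, 1468 and 1713, 1707 and 1685, and 1810 and 1841 bases. The 8 UV libraries reached at most 1841 bases and the 7 untreated ones were at 2745 or more. The shift was -0.87 in empty vector, and FBXW7 fell by 0.83 (adjusted p = 0.00147), 0.89 (0.00111) and 0.73 (0.00263) on the log2 scale (SE 0.0608, limma). The PIP4K2A call held without that line's first UV library (-0.72, adjusted p = 0.000334), with 1.01e-05 to 0.313 over 25 other settings. None of the other 11 genes in the SCF list passed in any knockdown.

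PPP1R10, also called PNUTS, targets protein phosphatase 1 to chromatin and takes part in ending transcription. Untreated, PPP1R10 averaged 1831 bases in empty vector, 1503 and 1582 in the PIP4K2A, 1668 and 1699 in the PIP4K2B and 1573 and 1760 in the double knockdown. UV libraries gave 1026 and 1094, 1039 and 1202, 1374 and 1372, and 1171 and 1194 bases. Each UV library was lower than each untreated one, with the PIP4K2B knockdown the least so. Against a shift of -0.79 in empty vector, PPP1R10 fell by 0.46 (SE 0.0756, adjusted p = 0.0278) and 0.49 (0.0204) on the log2 scale in the PIP4K2A and double knockdowns by limma. In the PIP4K2B knockdown the shift of -0.29 did not pass (adjusted p = 0.121). Without the first PIP4K2A UV library the shift in that line was -0.36 (adjusted p = 0.0783), and over 25 other settings its adjusted p ran from 0.00382 to 1.

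PPP1R10 has 1 annotated long form, the 4525-base PPP1R10-201, and no other above 605 bases. Its weighted length therefore limits the estimated share of that form closely. The share lay between 22.9% and 35.7% over the 7 untreated libraries and between 10.7% and 24.8% over the 8 UV libraries, counting the lowest lower limit and the highest upper limit. Of the 6 genes in the PP1 and PNUTS list, PPP1R10 was the one past the length test in the PIP4K2A and double knockdowns, and none passed in the PIP4K2B knockdown.

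TIGD6 is derived from a pogo transposase, and its function is little known. Its weighted length was 2006 bases in empty vector untreated, 1475 and 1447 in the PIP4K2A, 1796 and 1442 in the PIP4K2B and 1649 and 1659 in the double knockdown. After UV the libraries held 1262 and 1111, 1130 and 1140, 1249 and 1152, and 1138 and 1180 bases. The UV libraries were all under the untreated ones, and the untreated empty-vector library was the longest of all. The shift was -0.76 in empty vector, -0.36 (adjusted p = 0.119) for PIP4K2A and -0.42 (0.0969) for PIP4K2B, neither past the limma test. The PIP4K2A shift was -0.36 without that line's first UV library (adjusted p = 0.283). TIGD6 did pass with PIP4K2A knocked down in 3 of 24 other settings, among them a fragment-length covariate (-0.41, adjusted p = 0.043), and its adjusted p ran from 0.043 to 0.466. In the PIP4K2B knockdown 1 of 24 passed, with a range of 0.0333 to 0.428. In the double knockdown TIGD6 fell by 0.51 (SE 0.1, adjusted p = 0.045), a call that was lost in 12 of 15 fits with 1 library left out. Its adjusted p there ran from 0.0174 to 0.235 over 24 other settings. TIGD6 and JRKL were the pogo-derived genes past the test in that line, JRKL by 0.02 (adjusted p = 0.0404), out of 10 tested.

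**Figure D2:**
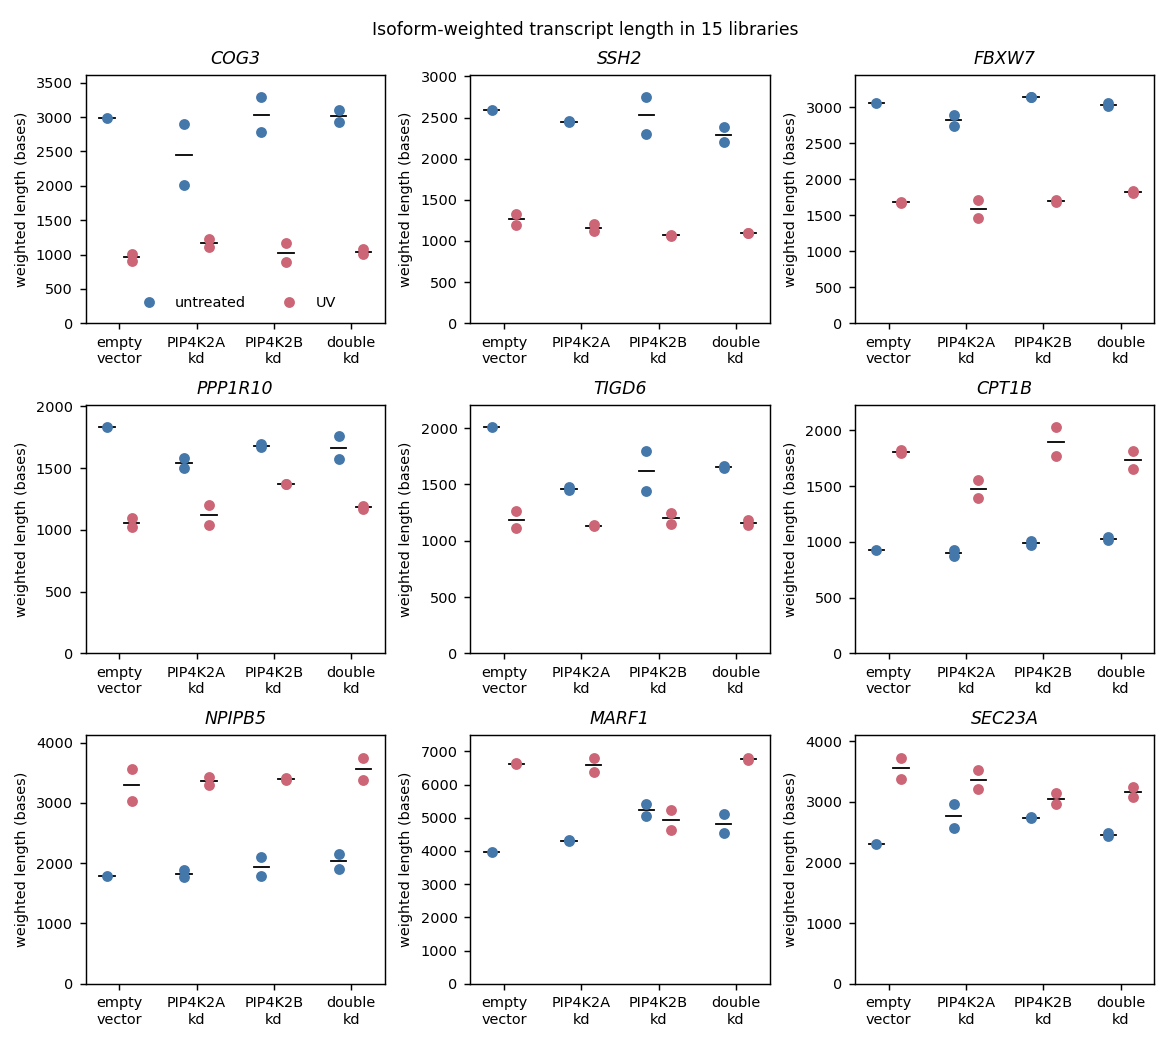
Isoform-weighted length in bases for each gene (axes start at 0), with 1 point per library, blue for untreated and red for UV, and a black bar at the group mean; the empty-vector untreated group is 1 library. COG3, SSH2 and FBXW7 separate widely in all 4 genotypes, while MARF1 does not separate in the PIP4K2B knockdown (5412 and 5058 bases untreated, 4640 and 5222 after UV).

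CPT1B and NPIPB5 became longer in every knockdown. CPT1B is the muscle form of the carnitine palmitoyltransferase that commits fatty acids to import into mitochondria. Untreated, CPT1B averaged 928 bases in empty vector, 926 and 871 in the PIP4K2A, 974 and 1009 in the PIP4K2B and 1041 and 1016 in the double knockdown. UV libraries gave 1820 and 1798, 1558 and 1390, 2026 and 1771, and 1651 and 1811 bases. No untreated library came near the UV libraries. The shift was 0.96 in empty vector, and CPT1B rose by 0.71 (SE 0.0792, adjusted p = 0.00825), 0.93 (0.00311) and 0.75 (0.00625) on the log2 scale by limma. The PIP4K2A call held with that line's first UV library left out (0.63, adjusted p = 0.0355), and it ran from 0.00265 to 0.301 over 24 other settings. The muscle genes MYH2 (0.467 to 1.2 CPM), ACTA1 (0 to 0.276) and CKM (0 to 0.126) were near 0 in the 15 libraries. Of 6 carnitine-shuttle genes 3 could be tested for length, and CPT1B was the one that passed in each knockdown.

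NPIPB5 belongs to the nuclear pore complex interacting protein family, which spread by segmental duplication on chromosome 16. Its weighted length was 1790 bases in empty vector untreated, 1769 and 1888 in the PIP4K2A, 1782 and 2101 in the PIP4K2B and 1899 and 2160 in the double knockdown. After UV it was 3028 and 3558, 3434 and 3296, 3385 and 3414, and 3754 and 3376 bases. The UV libraries were all at 3028 bases or more and the untreated ones at 2160 or less. The shift was 0.87 in empty vector, and NPIPB5 rose by 0.88 (SE 0.11, adjusted p = 0.0121), 0.81 (0.0163) and 0.81 (0.0135) on the log2 scale by limma. Without the first PIP4K2A UV library the shift in that line was 0.85 (adjusted p = 0.0561), and over 25 other settings its adjusted p ran from 0.00894 to 0.54. Of 24 NPIP genes 9 could be tested for length, and NPIPB5 alone passed in each knockdown.

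MARF1, meiosis regulator and mRNA stability factor 1, binds RNA and promotes its decay. Its weighted length was 3962 bases in empty vector untreated, 4320 and 4306 in the PIP4K2A, 5412 and 5058 in the PIP4K2B and 5105 and 4548 in the double knockdown. After UV it was 6615 and 6657, 6383 and 6813, 4640 and 5222, and 6817 and 6742 bases. The PIP4K2B knockdown was the exception: its UV libraries were the shortest UV ones, and of the untreated libraries outside it 1, of the double knockdown, was longer than its shorter one. MARF1 shifted by 0.74 in empty vector and rose by 0.61 (SE 0.0708, adjusted p = 0.00892) and 0.49 (0.017) in the PIP4K2A and double knockdowns by limma. With that first UV library left out, the PIP4K2A shift was 0.66 (adjusted p = 0.0294), with 0.00762 to 0.248 over 25 other settings. In the PIP4K2B knockdown the shift was -0.09 (adjusted p = 0.747; 95% interval -0.25 to 0.08). None of the other 8 decapping and decay genes in its list passed in any knockdown.

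**Figure D3:**
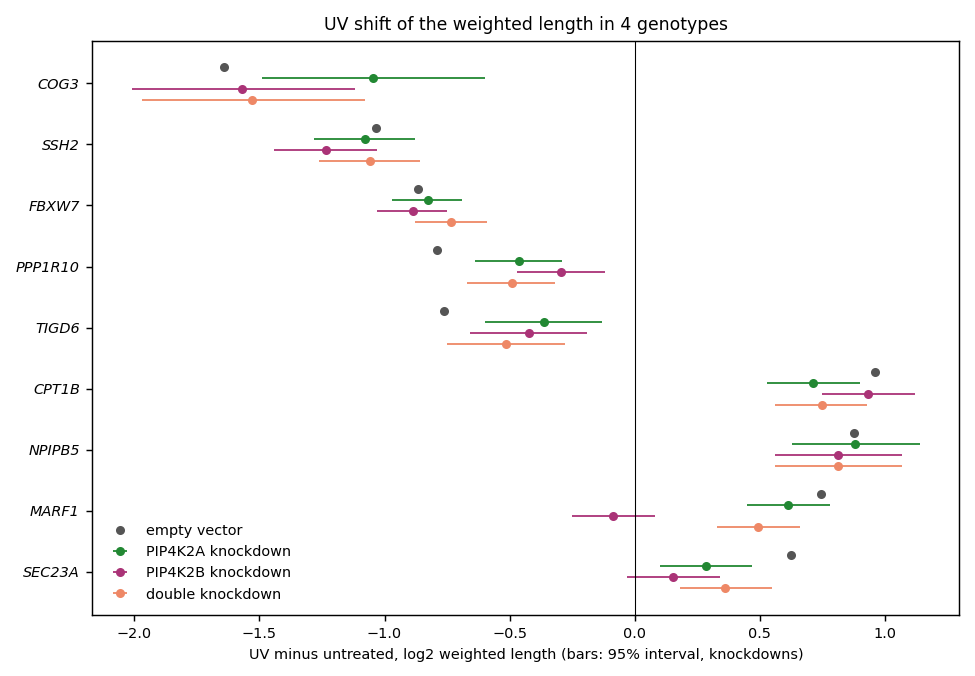
UV minus untreated difference of the log2 weighted length (points) for each gene in 4 genotypes, with 95% intervals from limma (bars) in the 3 knockdowns; the empty-vector values, with which the genes were chosen, have no bar. The values lie on 1 side of 0 for 8 genes, while MARF1 is at -0.09 in the PIP4K2B knockdown against 0.61 and 0.49 in the other knockdowns.

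The differences between the knockdowns' UV shifts were tested in the same fit. The MARF1 shift was lower with PIP4K2B than with PIP4K2A knocked down, a difference of -0.70 (SE 0.1, 95% interval -0.93 to -0.47; limma, adjusted p = 0.331). Between the double and the PIP4K2B knockdown the difference was 0.58 (95% interval 0.35 to 0.81, adjusted p = 0.424). Both intervals, which cover 1 gene at a time, exclude 0, and neither difference passed after Benjamini-Hochberg adjustment over all genes. The untreated PIP4K2B libraries also started higher, and the empty-vector contrast was not used in this test. For the other 8 genes the adjusted p was 0.934 or higher in every such difference. The intervals are wide for COG3, whose PIP4K2B minus PIP4K2A difference ran from -1.15 to 0.11, and narrower for FBXW7, from -0.26 to 0.14. Over all genes, 0.0158% passed for PIP4K2B minus PIP4K2A (2 of 12650, ANAPC4 and CLGN), and 0 passed in the other differences, where 547 and 414 genes had an unadjusted p under 0.05 by limma. None of the 9 genes passed in a direct comparison of 2 knockdowns within a treatment, in which 0.0158%, 0.0079% and 0.0079% of all genes passed untreated, and 0%, 0.0711% and 0.0632% after UV, for PIP4K2B against PIP4K2A, double against PIP4K2A and double against PIP4K2B. For the 0% case, 1344 genes had an unadjusted p under 0.05 by limma.

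Expected counts were tested with edgeR's quasi-likelihood test after TMM scaling, which calls 30.6%, 32.9% and 35.2% of 22597 genes in the PIP4K2A, PIP4K2B and double knockdowns and 18.5% in empty vector. PPP1R10 had 94.6 CPM in empty vector untreated and 119 to 128 in the untreated knockdowns, against 22.6 to 36.5 in the UV libraries. It fell by 1.68, 1.78 and 1.93 on the log2 scale in the knockdowns (SE 0.1 to 0.102, adjusted p = 6.31e-07, 3.87e-07 and 1.4e-07), and its shift in empty vector was -1.80. FBXW7 fell, with shifts of -1.05, -1.32 and -1.27 (adjusted p = 2.6e-05 at most, -1.03 in empty vector). SSH2 fell as well, with shifts of -0.44, -0.63 and -0.84 (adjusted p = 0.0206 at most, -0.59 in empty vector). These are 3 of the 5 genes that were shorter, and the others, TIGD6 and COG3, were not called lower. The calls stand beside the 30.6%, 32.9% and 35.2% of all genes called in either direction, and the split by direction is given below. A link between length and counts was not tested. These counts are not divided by transcript length, and the TPM values of the same genes are given below. With 1 library left out, the SSH2 shift with PIP4K2A knocked down ran from -0.26 to -0.68, and its call was lost in 2 of 15 fits, without the first untreated and without the second UV library of that line (adjusted p = 0.109 and 0.0953, edgeR). PPP1R10 was at -1.88, FBXW7 at -1.16, SSH2 at -0.68 and TIGD6, described next, at 0.79 in that line without its first UV library, all still called (edgeR, adjusted p = 0.00256 at most). Over 23 other settings the highest adjusted p there was 0.11, 0.0631, 0.697 and 0.632 in the same order. TIGD6 had more: it rose by 0.89, 0.73 and 1.02 (adjusted p = 0.000606, 0.00196 and 0.000208, edgeR), from 4.03 to 5.35 CPM untreated to 5.91 to 8.62 CPM after UV.

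NPIPB5 rose in counts as well, by 1.19, 1.04 and 0.91 on the log2 scale (adjusted p = 0.00217, 0.00406 and 0.00855, edgeR). Its highest library was the first PIP4K2A UV one at 155 CPM, without which the rise in that line was 0.68 (adjusted p = 0.00838), and over 23 other settings that adjusted p ran from 3.47e-23 to 0.624. MARF1 fell slightly in the PIP4K2A (0.22, adjusted p = 0.0463) and PIP4K2B knockdowns (0.33, 0.00566), and the double knockdown's shift of -0.20 did not pass (0.0626). Without the first PIP4K2A UV library that first call was lost (-0.21, adjusted p = 0.0865), and over 23 other settings it ran from 3.17e-05 to 0.942. COG3, CPT1B and SEC23A passed in no knockdown: their shifts were -0.22, -0.29 and -0.18, then 0.02, 0.29 and 0.42, and then 0.29, -0.01 and 0.29. SEC23A did pass in the PIP4K2A knockdown without its first UV library (0.43, adjusted p = 0.0057), with 0.0057 to 0.928 over 23 other settings, while COG3 (-0.10) and CPT1B (0.02) did not.

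The directions of these counts depend on the scaling. With TMM, 3755 genes rose and 3166 fell in the PIP4K2A, 3951 and 3490 in the PIP4K2B and 4312 and 3645 in the double knockdown, and 1959 and 2219 in empty vector. Scaled to 77 cytosolic ribosomal protein genes, the split was 195 and 14444, 128 and 15160, 135 and 14707, and 150 and 10894. On that scale PPP1R10, FBXW7, SSH2, MARF1 and COG3 were lower in all 3 knockdowns. CPT1B (-0.77, -0.62 and -0.47) and SEC23A (-0.51, -0.91 and -0.59) were lower in all 3 as well. These falls stand beside the 14444, 15160 and 14707 genes that fell in these lines on that scale. NPIPB5 (0.36, 0.14 and 0.03) and TIGD6 (0.08, -0.17 and 0.15) no longer passed. The weighted length is a ratio within a gene and takes no library scaling.

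TPM divides each count by the gene's effective length, so a shift in length enters it directly. Over all genes the median TPM shift was -0.60 in empty vector and -0.46, -0.54 and -0.65 in the knockdowns, on the log2(TPM + 0.1) scale. COG3 was at 4.51 to 9.2 TPM untreated and 7.64 to 10.8 after UV. It was higher in the PIP4K2B (0.83, adjusted p = 0.0241) and double (0.75, 0.0304) knockdowns by limma, although its counts had not risen. CPT1B fell in TPM, with shifts of -1.36, -1.44 and -1.23 (adjusted p = 0.00508, 0.00289 and 0.00487) with no change called in its counts. NPIPB5, with more counts, fell in TPM by 0.78 in the double knockdown (adjusted p = 0.0288). MARF1 fell in TPM too, with shifts of -1.39, -0.90 and -1.50 (adjusted p = 0.00191 at most), as did SEC23A with -0.56, -0.85 and -0.91 (0.0147 at most). These calls stand beside 36.7%, 43.4% and 53.8% of all genes called in TPM in the knockdowns and 37.7% in empty vector. As a description, mean SSH2 TPM went from 16.6 to 15.4 in empty vector and from 19.6 to 24.2 with PIP4K2A knocked down. It went from 18.5 to 19.7 with PIP4K2B and from 24.8 to 18.4 with both. The 2 PIP4K2A UV libraries were at 29.6 and 18.7. Median TPM over untreated and UV libraries was 59.9 and 13.25 for PPP1R10, 8.68 and 3.65 for FBXW7, and 2.07 and 4 for TIGD6.

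**Figure D4:**
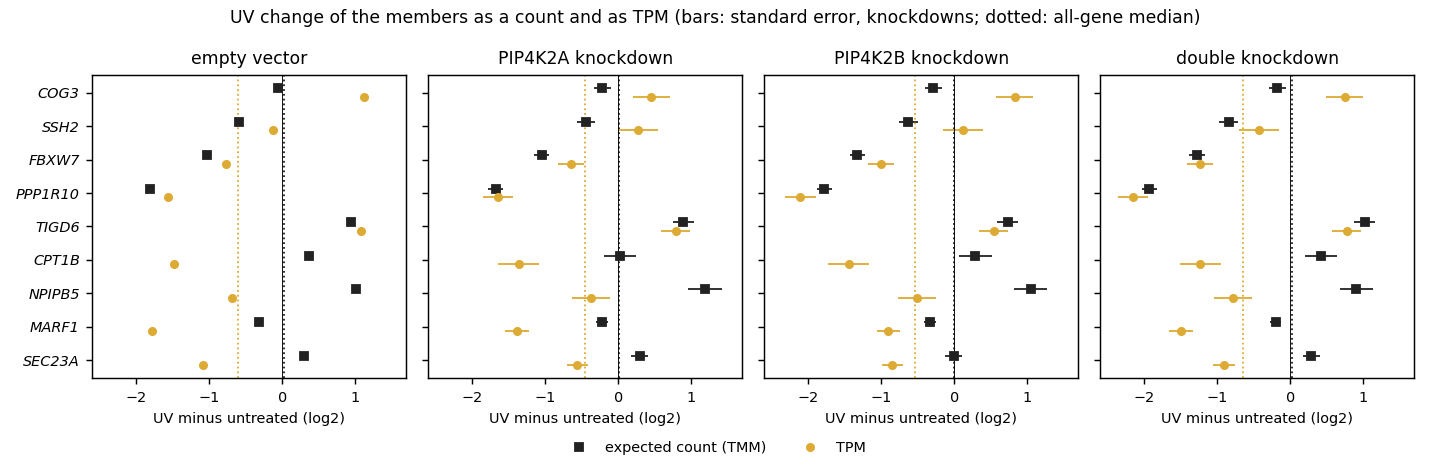
UV minus untreated difference (log2) of each gene as an expected count after TMM scaling (squares) and as TPM (circles), in 4 genotypes, with standard errors as bars in the 3 knockdowns and the median of all genes as dotted lines. For COG3 the TPM value lies to the right of the count value and for CPT1B, NPIPB5, MARF1 and SEC23A to the left; CPT1B is at 0.02 as a count and -1.36 as TPM in the PIP4K2A knockdown.

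The 9 genes can be set beside the rest of the length measurements. Of 128 genes called in empty vector, 78 (60.9%) were called in the same direction in the PIP4K2A, 74 (57.8%) in the PIP4K2B and 89 (69.5%) in the double knockdown, which is 24.5%, 33.5% and 26.5% of the calls in those lines. Genes called in the opposite direction numbered 0, 2 and 1. Among genes called in all 3 knockdowns, the 5 largest mean rises were those of NPIPB5, CPT1B, KLHL17 (0.53, 0.55 and 0.60), CCDC142 (0.54, 0.47 and 0.58) and POLR1A, the large subunit of RNA polymerase I (0.51, 0.50 and 0.57). The 5 largest mean falls were those of COG3, SSH2, CREB5 (-0.85, -0.96 and -1.05), ZNF226 (-0.98, -0.74 and -1.05) and NR6A1 (-0.71, -0.83 and -0.94). ZNF226 differed from the 9 genes in that its empty-vector value was 0.10. ASCC3 had small shifts, -0.18 in empty vector and -0.04, -0.09 and -0.08 in the knockdowns, none past the limma test (adjusted p = 0.672, 0.298 and 0.337).

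Other genes of UV isoform biology and of 3′ end formation are read against the 2.51%, 1.75% and 2.66% of all genes that passed in the PIP4K2A, PIP4K2B and double knockdowns. FN1, fibronectin, fell by 0.41 in the double knockdown (adjusted p = 0.0435, limma), 1 of 6 genes listed for UV-dependent isoforms. Of 22 cleavage and polyadenylation genes, PCF11, which links cleavage to termination, fell by 0.34 in the PIP4K2B (adjusted p = 0.0444) and 0.41 in the double knockdown (0.0204), and SCAF4 rose by 0.15 in the double knockdown (0.0495). No gene of that list passed in the PIP4K2A knockdown. For each of the 9 genes, the gene with the most similar log2 length over the 15 libraries was found among 12631 genes by Pearson's r, as a description: DISP1 for COG3 (0.963), NR6A1 for SSH2 (0.984), ZMYND19 for FBXW7 (0.976), COL12A1 for PPP1R10 (0.951) and SH3GLB2 for TIGD6 (0.937). For the genes that were longer they were ASH1L for CPT1B (0.973), FLOT1 for NPIPB5 (0.98), ZSCAN29 for MARF1 (0.911) and LPIN1 for SEC23A (0.945). These libraries share the UV contrast, which separates them into 2 groups.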

How the data were processed

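RNA was measured in 16 libraries, of which 15 were used. The authors deposited 1 table per library, and per the file headers it holds gene lengths in bases, expected counts, which RSEM estimates, and TPM. Per the submitters' processing notes, STAR, RSEM and SAMtools were used with GRCh38. Neither versions nor annotation release nor strandedness of counting is given in the sources used here. GENCODE 29, which held 58420 of the gene IDs, gave positions and transcripts.

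The log2 of the deposited length was tested with limma 3.58.1 (R 4.3.3) where the mean expected count reached 100. Values from libraries under 10 counts were set as missing, and the fit had 1 term per group over 8 groups, with Benjamini-Hochberg adjustment over all genes at 0.05. With 7 residual degrees of freedom, the spread is shared by all groups. All 9 genes passed the filters. Rounded expected counts were tested with edgeR 4.0.16 (filterByExpr minimum 10, TMM). CPM values divide by the library total without TMM factors, so a ratio of CPM values differs from the fitted shift. TPM was tested with limma on log2(TPM + 0.1). The fits were tested on simulated data.

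The members were chosen with the empty-vector length values in view, and the lists with earlier results of these data known. The text names the 9 genes, up to 3 genes a list that passed the length test in the most knockdowns, the 5 largest rises and falls called in all 3 knockdowns, the gene nearest in pattern to each member, and ASCC3. ANAPC4 and CLGN were named after their values were seen. Alternatives were other count minimums, the effective length, a replicate block, only the 2 groups compared, all 16 libraries, trended eBayes, each library left out, RLE or ribosomal protein scaling, other filters and DESeq2 1.42.0. A fragment-length covariate and the TPM readout were added after seeing the data.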

Additional observations from a re-analysis of the deposited data

Results flagged for a closer look

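For weighted length, 2 genes outside the 9 differed in their UV response between the PIP4K2B and PIP4K2A knockdowns by limma's test of that difference: ANAPC4 by -0.48 (SE 0.0419, adjusted p = 0.0322) and CLGN by -0.24 (SE 0.0168, adjusted p = 0.0108).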

How the results depend on the processing

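No shift in length of the 9 genes changed direction under any alternative run, but sizes and calls did change. With all 16 libraries the empty-vector shifts of PPP1R10, SSH2 and SEC23A became -0.10, -0.64 and 0.37 and that of NPIPB5 1.47. NPIPB5 and SSH2 then lost their call in each knockdown, PPP1R10 in the PIP4K2A and double knockdowns, COG3 in the PIP4K2A and TIGD6 in the double knockdown. With the fragment-length covariate, COG3 lost its call in the PIP4K2A knockdown (-0.99, adjusted p = 0.053, limma; 0.0277 to 0.423 over its settings) and TIGD6 gained one there (0.043). FBXW7 and SSH2 kept their call in each knockdown in all 15 fits with 1 library left out. CPT1B lost it without the second untreated PIP4K2A library and without the second double-knockdown UV library. COG3 lost it in 10, 2 and 4 of these fits in the PIP4K2A, PIP4K2B and double knockdowns, PPP1R10 in 7 in the PIP4K2A and 3 in the double knockdown, NPIPB5 in 3 in each line, MARF1 in 1 and 3, and TIGD6 in 12. When only the 2 groups compared were fitted, limma called 0 genes in length in each genotype. Those fits had 1334 to 2224 genes at an unadjusted p under 0.05. They hold at most 2 libraries a group, and the cause of the 0 calls was not tested. With all 16 libraries 32, 25, 26 and 43 genes were called in empty vector and the PIP4K2A, PIP4K2B and double knockdowns, and with the effective length 63, 200, 143 and 220; the cause was not tested. Differences between the 2 libraries of a group were correlated between groups at -0.173 to 0.251 (21 pairs, 4 above 0.1 and 3 under -0.1). The empty-vector untreated group, with 1 library, could not enter. The labels do not say what a replicate number stands for, and a shared batch was not tested further. The replicate block gave 77 calls in empty vector in place of 128 and changed no call of the 9 genes in length; in counts it took MARF1 in the PIP4K2A knockdown to an adjusted p of 0.0599. Leaving out 1 library gave 38 to 175 length calls in empty vector, 81 to 2003 in the PIP4K2A knockdown (2003 without its second UV library, 149 without its first), 43 to 319 in the PIP4K2B and 47 to 482 in the double knockdown. For differences of UV shifts it gave 0 to 623 (PIP4K2B minus PIP4K2A), 0 to 754 (double minus PIP4K2A) and 0 to 5 (double minus PIP4K2B). For pairs of knockdowns it gave 0 to 6, 0 to 5 and 1 to 9 untreated, and 0 to 1316, 0 to 1583 and 0 to 10 after UV, in the order PIP4K2B against PIP4K2A, double against PIP4K2A and double against PIP4K2B; the highest of 623 to 1583 all came without the second PIP4K2A UV library. The main counts for these are 2, 0 and 0, then 2, 1 and 1, and 0, 9 and 8. With a mean count minimum of 500 they became 1, 0 and 1, then 1, 0 and 2, with 3 for UV PIP4K2B against PIP4K2A; with a minimum of 30 the differences of the double knockdown were 1 and 2. With the effective length they were 0, or 3 for UV double against PIP4K2B, and with the replicate block 0, 1, 0 and 2 for those that moved, or 1 for UV double against PIP4K2B. Settings other than these that gave 0 calls had 277 to 1494 genes at an unadjusted p under 0.05 by limma.

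For counts, leaving out 1 library gave 2379 to 6539, 4617 to 8496, 4453 to 9272 and 4956 to 9826 calls in empty vector and the 3 knockdowns. Ribosomal protein scaling gave 11044, 14639, 15288 and 14842, all 16 libraries 2642, 118, 173 and 267, and the 2-group fit 7350 in empty vector and 1557 in the PIP4K2A knockdown. Directions that reversed with ribosomal protein scaling were CPT1B at -0.37, -0.77, -0.62 and -0.47 in the 4 genotypes, SEC23A at -0.43, -0.51 and -0.59 in empty vector, the PIP4K2A and the double knockdown, and TIGD6 at -0.17 in the PIP4K2B knockdown. With all 16 libraries COG3 (0.28), TIGD6 (-0.38) and MARF1 (0.17) reversed in empty vector. CPT1B in the PIP4K2A knockdown, at 0.02, reversed to -0.01 with the CPM filter and -0.008 with 2 groups. Leaving out 1 library gave -0.159 to 0.171 there, and -0.063 to 0.033 for SEC23A in the PIP4K2B knockdown. With 2 libraries a group, and 1 untreated in empty vector, the precision of every value is low.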
